A study of Homo sapiens with 8 samples.

Results

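Ribosomal protein transcripts were examined at 7 loci, those of RPL3, RPL4, RPL5, RPLP0, RPS3, RPS6 and RPSA, for RNA pulled down with an antibody against the RNA-binding protein RBPMS. The members were the listed peaks that shared at least 1 base with a window of 5 to 24 kb around each gene, on the strand of the gene, in build hg19. They numbered 143 of 194003 listed peaks, with 17 of 25759, 72 of 118375, 25 of 20254 and 29 of 29615 in libraries 1 to 4. The lists hold no gene names, and the windows give the genes theirs.

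The 4 eCLIP libraries and 4 inputs, 8 libraries in all, came from HUES6, a long-established human embryonic stem cell line, with the genotype label WT and the treatment label control throughout. The labels name no drug, engineered allele or time point. All cells, the inputs included, had been irradiated with UV light at 400 mJ/cm2, and the inputs were RNA that was not immunoprecipitated. The inputs have no values of their own here and enter through the authors' log2 fold of immunoprecipitation over input and its −log10 p, given per peak. Whether the cells carried markers of embryonic stem cells was not checked, since the lists hold peaks and not expression levels. No mock pulldown and no cells without RBPMS are among the samples. The labels do not say whether each library had a culture of its own, and the spread between libraries may therefore be technical only. Libraries 3 and 4 agreed within sampling noise in their immunoprecipitation reads and were counted as 1 sample.

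Ribosomal proteins make up the small and the large subunit of the ribosome together with ribosomal RNA. Their mRNAs are among the most abundant of growing cells. In vertebrates these mRNAs typically begin with a run of pyrimidines, the 5′ terminal oligopyrimidine tract, through which their translation follows growth signals. Many of their introns also hold genes of small nucleolar RNAs, which guide chemical changes of ribosomal RNA and are cut out of the spliced introns.

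The start of each transcript is shown because it is the sequence feature this family is known for. Sequences are from RefSeq on build GRCh38.p14, whose positions cannot be set against the hg19 positions of the peaks, and 6 of the 7 genes matched, all but RPL5. Each run covers 5 bases before and 20 bases from the annotated start, and capitals mark the longest run of C or T that begins within the first 10 transcribed bases.
RPL3, chr22:39319604-39319628, minus strand: ccggcCTCTaccggcgggatttgat
RPL4, chr15:66504836-66504860, minus strand: gtggtaagcaCTTCCTTTTCCTgtg
RPLP0, chr12:120201092-120201116, minus strand: gaggcCCTTCTCTCgccaggcgtcc
RPS3, chr11:75399513-75399537, plus strand: cacttCCTTTCCTTTCagcggagcg
RPS6, chr9:19380217-19380241, minus strand: tggccCTCTTTTCCgtggcgcctcg
RPSA, chr3:39406715-39406739, plus strand: cctgtCTTTTCCgtgctacctgcag

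The run was at least 5 bases long in 5 of these 6 genes, and in 26.3% of all 35116 starts in the same table. It was longest in RPL4, with 12 bases from base 6 on, a length reached by 1.38% of all starts. RPS3 had 11 bases, RPLP0 and RPS6 had 9 each, and RPSA had 7. RPL3 had 4, a length reached by 41.9% of all starts. In RPL4 the run did not begin at the annotated first base.

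None of the 143 peaks was enriched at 8-fold. An enriched peak was one with a log2 fold of at least 3 over input and a −log10 p of at least 3, both as deposited by the authors. Enriched peaks numbered 0 of 17, 0 of 72, 0 of 25 and 0 of 29 in libraries 1 to 4, where 15.9%, 5.38%, 12.6% and 12.7% of all listed peaks were enriched. A count of 0 allows a share of up to 17.6%, 4.17%, 12.0% and 10.3% in libraries 1 to 4. This limit is 3 over the number of peaks, an approximate 1-sided 95% limit, and a 2-sided limit would be wider. In library 1 it lies above the share of the whole list, so at 17 peaks a difference was not detectable there. In library 3 it lies only just below, so a difference is not settled there either. In libraries 2 and 4 it lies below but close to the share. Taken over all libraries, 0 of 143 allows up to 2.10%, against 8.65% of all listed peaks. This pooled limit counts each peak as separate, although the same places recur over libraries. Of the 75 regions that the peaks formed, 15 were listed in at least 3 libraries, and a single RPSA region held 13 peaks. The pooled limit is therefore too narrow and is not a limit over samples. These limits cover counting error only, and neighbouring peaks can share reads. Enriched peaks of the 4 libraries formed 7472 regions in the whole series, and 0 lay in the 7 windows. Of the 1699 regions enriched in at least 3 libraries, 0 lay there too. Both follow from the 0 enriched peaks above and add no further result. For scale, the windows held 143 of the 194003 listed peaks.

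The peaks of these genes lay low in every list. Their median log2 fold was 0.36, -0.46, 0.35 and 0.20 in libraries 1 to 4, against 3.25, 1.06, 2.67 and 2.13 for all listed peaks. These medians exceeded 4.08%, 8.94%, 5.90% and 10.1% of the peaks in the lists. A log2 fold below 0, less RNA in the immunoprecipitate than in input at equal depth, was found for 8 of 17, 47 of 72, 11 of 25 and 13 of 29 peaks in libraries 1 to 4. In the lists as a whole 2.84%, 15.6%, 4.29% and 7.42% of the peaks were below 0. Over samples the share below 0 was 52.3% ± 11.4 for the 7 genes and 8.09% ± 6.66 for all listed peaks (SD, n = 3, libraries 3 and 4 counted as 1 sample). Every peak below 0 has a deposited −log10 p of 0, so the lists give no test of depletion.

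**Figure D1:**
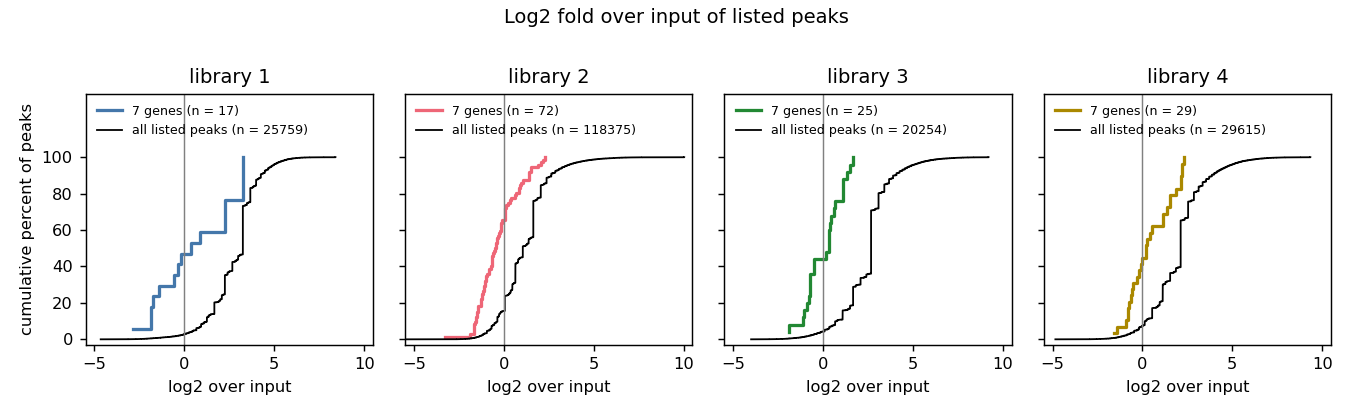
Cumulative percent of peaks by log2 fold over input in each library, with the peaks of the 7 genes in colour and all listed peaks in black. In each library the coloured line lies to the left of the black one, with medians of 0.36, -0.46, 0.35 and 0.20 against 3.25, 1.06, 2.67 and 2.13.

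Input reads went together with this. The log2 fold of nearly all peaks is a ratio of whole read numbers, from which the reads could be worked out exactly for 58 of the 143 peaks and as the lowest possible whole numbers for the other 85. By these numbers 88 of the 143 peaks (61.5%) rested on at least 10 input reads, with 52.9%, 72.2%, 44.0% and 55.2% in libraries 1 to 4. Of all listed peaks 6.62%, 6.95%, 4.79% and 4.66% did so.

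Peaks with many input reads were seldom enriched anywhere in the lists. Among all peaks above input with at least 10 input reads and exact read numbers, 3.50%, 0.615%, 1.40% and 0.405% were enriched in libraries 1 to 4. The members of this kind numbered 2, 15, 5 and 7, so that 0 of them being enriched is near the share of all such peaks. For peaks whose ratio in lowest terms had at least 10 input reads, the share below 0 was 77.8% (7 of 9), 77.1% (37 of 48), 66.7% (6 of 9) and 64.3% (9 of 14) for the 7 genes in libraries 1 to 4. Among all listed peaks with such ratios it was 40.8%, 62.2%, 63.2% and 63.0%. In libraries 3 and 4 the members and all such peaks thus had nearly the same share below 0, and in libraries 1 and 2 the members had the higher one. Adjoining peaks were counted singly here, and the 37 of library 2 include all 10 of its RPSA peaks, most of which adjoin. The higher shares are therefore not those of separate places, and library 1 rests on 9 peaks. The part of input depth in the low folds was not tested beyond this.

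**Figure D2:**
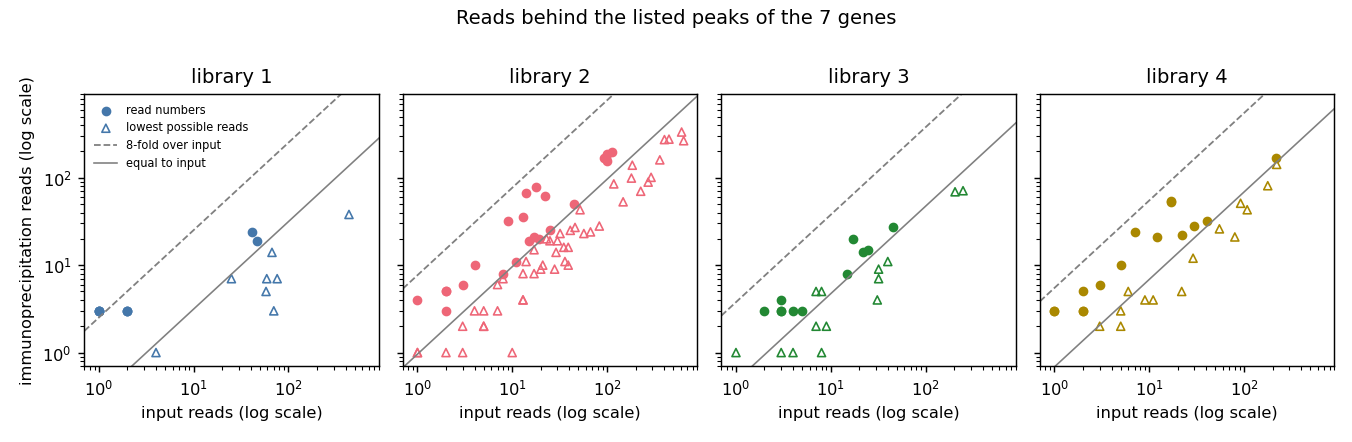
Immunoprecipitation reads against input reads of each peak of the 7 genes, both on log scales, by library. Filled circles are exact read numbers, open triangles the lowest numbers that give the deposited ratio; the solid line marks equality with input after scaling for depth and the dashed line 8-fold. Only peaks of 3 immunoprecipitation reads over 1 input read in library 1 lie on or above the dashed line.

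A fold of 8 or more was within reach of the counting error for some peaks. The upper 95% limit of the log2 fold, from the exact binomial interval of the 2 read numbers, was below 3 for 105 of the 143 peaks. For the other 38 the limit was 3 or more, 31 of them with exact reads. The remaining 7 had only the lowest possible reads, so their limits may be wider than the true reads would give. A log2 of at least 3 was listed for 4 peaks, all in library 1, 2 in RPL3 and 2 in RPS3. Each rested on 3 immunoprecipitation reads over 1 input read, with a log2 fold of 3.25 (95% limits -0.39 to 8.97) and a −log10 p of 1.35. Both pairs consisted of adjoining peaks, so each pair can stem from the same 3 reads.

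Peaks above input with a −log10 p of at least 3 occurred in RPL3 and RPL4 and in none of the other 5 genes. They numbered 10 of 72 in library 2 and 3 of 29 in library 4, and 0 of 17 in library 1 and 0 of 25 in library 3. Of all listed peaks 18.2%, 7.47%, 13.8% and 14.1% passed in libraries 1 to 4. Without library 2 the count was thus 3, and without library 4 it was 10. Their log2 folds ran from 0.71 to 2.32, and the upper 95% limit was below 3 for 7 of the 13. Where exact reads could be worked out and input held at least 10, 9 of 15 members and 26.5% of all such peaks passed in library 2, and 2 of 7 and 24.9% in library 4. The 2 in library 4 adjoin each other in RPL4, and several of those in library 2 adjoin in RPL3. Adjoining peaks can share reads, so these counts are not of separate places and were not compared with the shares.

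**Figure D3:**
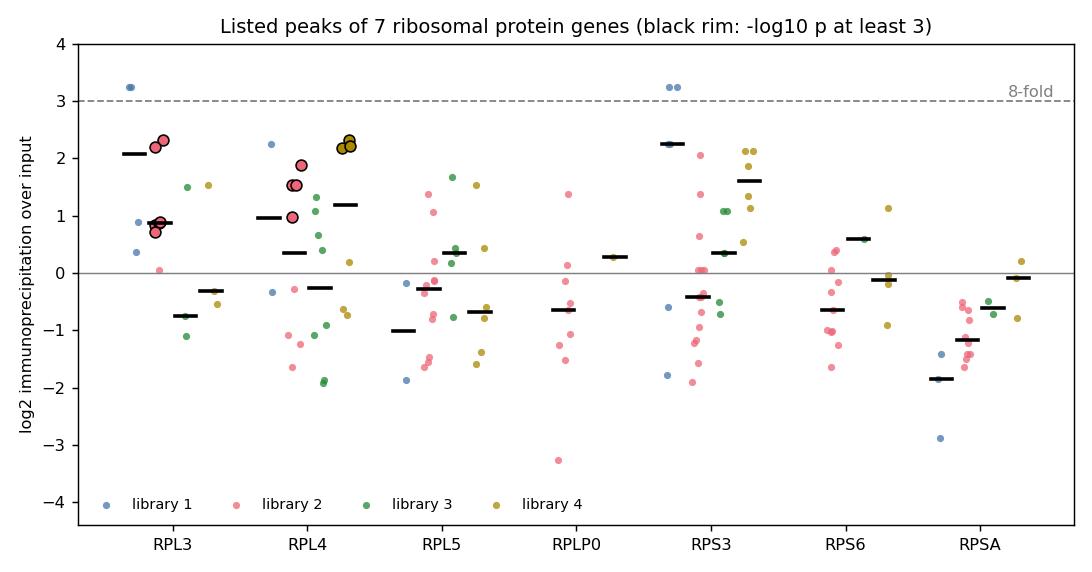
Log2 fold over input of every listed peak, by gene and library, with black bars at the median of each gene in each library and black rims on peaks with −log10 p of at least 3. The 13 rimmed peaks are in RPL3 and RPL4, in libraries 2 and 4, and all lie below the dashed line at 8-fold.

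RPL3 codes for a large-subunit protein near the peptidyl transferase centre. Its 17 peaks numbered 4, 7, 3 and 3 in libraries 1 to 4, with median log2 folds of 2.07, 0.88, -0.74 and -0.31. Libraries 1 and 2 held no peak below 0, whereas libraries 3 and 4 each held 2. The peaks formed 5 regions, of which 3 were listed in at least 3 libraries.

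The RPL3 region nearest the 5′ edge, on the minus strand of chromosome 22 from 39715048 to 39715120, had the highest mean log2 of all 15 regions that at least 3 libraries listed. Its highest peak stood at 2.32 in library 2 with 67 over 14 reads, 1.50 with 4 over 3 reads in library 3 and 1.54 in library 4 with 10 over 5 reads. Library 1 listed no peak there. The mean was 1.92 ± 0.56 (SD, n = 2), and all 3 libraries were above input. The −log10 p was 8.62 in library 2 but 0.66 and 1.13 in libraries 3 and 4, where few reads were present. A second peak of library 2 in this region had 79 over 18 reads and a log2 of 2.19, and another, at its 5′ end, had 8 over 8 reads and 0.06.

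The other recurrent RPL3 regions were listed in all 4 libraries. The higher of them lay from 39709822 to 39709917, at 0.89, 0.90, -1.11 and -0.31 in libraries 1 to 4, with a mean of 0.36 ± 0.93 (SD, n = 3). The lower one, from 39711219 to 39711315, stood at 0.36, 0.71, -0.74 and -0.54, with a mean of 0.14 ± 0.70. In both, libraries 1 and 2 were above input and libraries 3 and 4 below it, and the SD exceeded the mean. Library 2 passed the p threshold in both, with −log10 p of 5.91 and 3.82 over 168 and 155 immunoprecipitation reads. At the same places library 4 had at least 51 over 92 and 26 over 55 reads. The description codes of libraries 1 and 2 begin alike and differ from those of libraries 3 and 4; what the codes stand for is not stated, and their part in the split was not tested.

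RPL4 codes for a large-subunit protein that lines the exit tunnel of the ribosome. Its 24 peaks numbered 2, 8, 8 and 6 in libraries 1 to 4, with medians of 0.96, 0.35, -0.25 and 1.18, and 11 of them were below 0. The 11 regions included 5 that were listed in at least 3 libraries. These regions differed among themselves within the same libraries.

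Above input in each library that listed it was the region from 66795580 to 66795635 on chromosome 15, minus strand. It had a log2 of 1.53 with 61 over 22 reads in library 2, 1.32 with 20 over 17 reads in library 3 and 2.21 with 54 over 17 reads in library 4. The −log10 p was 4.89, 2.15 and 8.55, and the mean log2 was 1.65 ± 0.16 (SD, n = 2). Libraries 3 and 4 were averaged as 1 sample, and the SD leaves out the distance between them. The region from 66794360 to 66794410 stood at 1.53, 0.41 and 2.32 in libraries 2, 3 and 4, with 36 over 13 and 24 over 7 reads in libraries 2 and 4. Its mean was 1.45 ± 0.12 (SD, n = 2), although libraries 3 and 4, averaged as 1 sample, lay far apart. Library 1 listed neither of these. That from 66793590 to 66793650 reached 1.89 with 32 over 9 reads in library 2 and 1.09 in library 3, but -0.63 in library 4.

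In contrast, the region nearest the 3′ edge, from 66791745 to 66791833, was below input in each of the 3 libraries that listed it. It stood at -1.65, -1.87 and -0.73 in libraries 2, 3 and 4, with at least 11 over 36, 4 over 31 and 12 over 29 reads. Its mean was -1.47 ± 0.25 (SD, n = 2), where libraries 3 and 4, far apart, were averaged as 1 sample. In each of these libraries it lay below the region from 66795580 to 66795635. The 6 RPL4 peaks nearest the 3′ edge, from 66791745 to 66792674, were all below 0. The region listed in all 4 libraries, from 66795149 to 66795250, had a log2 of -0.33, 0.98, -0.91 and 0.19. There library 2 passed with 187 over 99 reads and −log10 p of 7.43, and the mean was 0.094 ± 0.77 (SD, n = 3).

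RPL5 codes for a large-subunit protein that carries 5S ribosomal RNA and, when free of ribosomes, binds the p53 regulator MDM2. Its 25 peaks numbered 2, 12, 5 and 6, with medians of -1.02, -0.28, 0.35 and -0.69 in libraries 1 to 4. Below 0 were 16 of them. The region on chromosome 1 from 93302835 to 93302927, plus strand, lay near input, at -0.17, 0.21, 0.43 and 0.44. Its mean was 0.16 ± 0.31 (SD, n = 3). The region from 93306271 to 93306410 had 10 peaks, of which 9 were below 0. The highest peak of each library there stood at -1.87, -0.21, 0.35 and -0.59, with a mean of -0.73 ± 0.98. This place was deep in input, and a library 2 peak from 93306323 to 93306341 had at least 101 over 292 reads and a log2 of -1.47.

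RPLP0 codes for the protein at the base of the ribosomal stalk. It had 9 peaks in library 2, 1 in library 4 and none in libraries 1 and 3. Of these 10, 7 were below 0, and the median was -0.65 in library 2, where the highest peak had 5 over 2 reads. The region listed in more than 1 library lay on chromosome 12 from 120638604 to 120638693, minus strand. It stood at -3.26 in library 2, the lowest of all 143 peaks, with at least 1 over 10 reads, and at 0.28 in library 4.

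RPS3 codes for a small-subunit protein at the mRNA entry channel. Its window of 24 kb, the widest of the 7, held 33 peaks, with 6, 15, 6 and 6 in libraries 1 to 4. The medians were 2.25, -0.41, 0.35 and 1.61, and 13 peaks were below 0. Of its 24 regions 20 were listed in 1 library. Those in all 4 libraries lay on chromosome 11, plus strand. The higher, from 75115473 to 75115598, stood at -0.59, -0.41, 0.35 and 0.54, with a mean of -0.19 ± 0.55 (SD, n = 3). The lower, from 75111430 to 75111576, stood at -1.77, -0.35, -0.72 and 1.35, with a mean of -0.60 ± 1.07. Library 4 alone was above input there, with 21 over 12 reads and a −log10 p of 1.91. Of the 15 peaks from 75119129 on to the 3′ edge, 12 had exact read numbers, with at most 5 immunoprecipitation reads each.

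RPS6 codes for the small-subunit protein that is phosphorylated by S6 kinases after growth signals. It had 11 peaks in library 2, 1 in library 3, 4 in library 4 and none in library 1. The medians were -0.64, 0.60 and -0.12 in libraries 2, 3 and 4, and 11 of the 16 peaks were below 0. The region listed in 3 libraries lay on chromosome 9 from 19378713 to 19378909, minus strand. It stood at 0.06, 0.60 and -0.04 in libraries 2, 3 and 4, with a mean of 0.17 ± 0.15 (SD, n = 2). Here too libraries 3 and 4 were averaged as 1 sample, and the SD leaves out their distance.

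RPSA codes for a small-subunit protein also known as the laminin receptor precursor. Of its 18 peaks 17 were below 0, namely 3 of 3, 10 of 10, 2 of 2 and 2 of 3 in libraries 1 to 4. The medians were -1.85, -1.17, -0.61 and -0.095. Of these peaks 13 lay in a single region of 144 bases, on chromosome 3 from 39449887 to 39450030, plus strand. The highest peak of each library there stood at -1.41, -0.50, -0.49 and 0.20, with a mean of -0.68 ± 0.65 (SD, n = 3). It held some of the deepest peaks of the 7 genes, with at least 265 over 644 reads in a library 2 peak at -1.22. A library 1 peak had at least 38 over 435 reads and stood at -1.85. The other 5 peaks, from 39452541 to 39452693, were all below 0, down to -2.88 in library 1 with at least 3 over 70 reads.

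**Figure D4:**
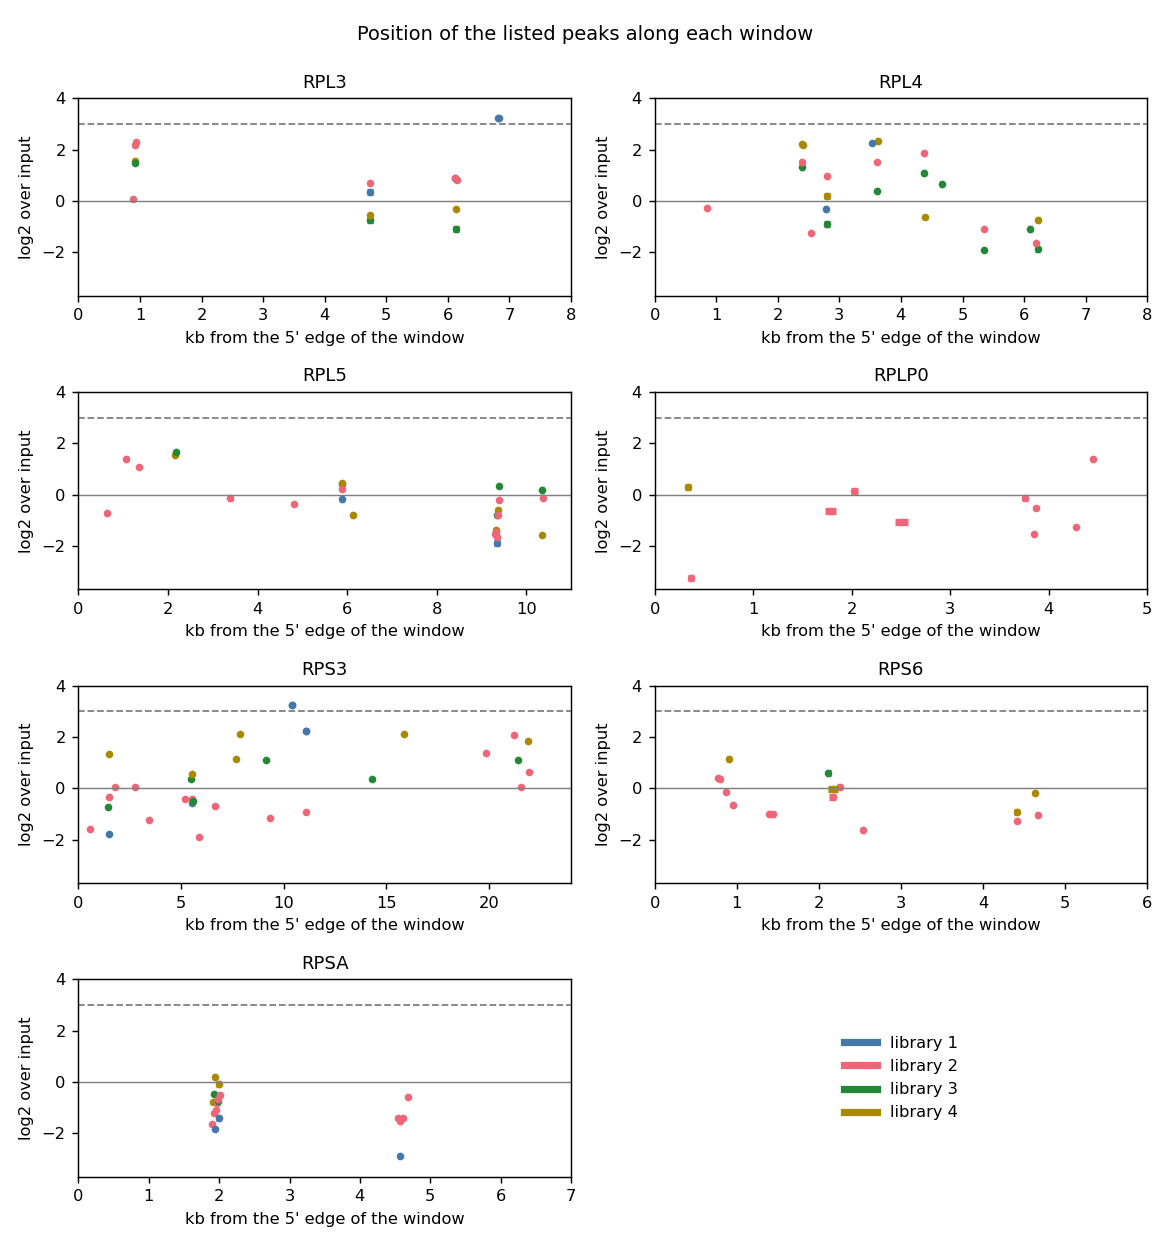
Log2 fold over input of each listed peak along the 7 windows, by distance from the 5′ edge in kb, with library by colour, the solid line at 0 and the dashed line at 8-fold. Peaks of different libraries stack at the same few places in RPL3, RPL4, RPL5 and RPSA, whereas RPS3 peaks past 7 kb are spread out.

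By the mean over samples of each library's median log2, the order was RPS3 at 0.94 ± 1.33, RPL3 at 0.81 ± 1.30 and RPL4 at 0.59 ± 0.33 (SD, n = 3 each). RPLP0 at -0.19 ± 0.66 and RPS6 at -0.20 ± 0.62 followed (SD, n = 2 each), then RPL5 at -0.49 ± 0.46 and RPSA at -1.12 ± 0.75 (SD, n = 3 each). Neighbours in this order differed by less than the larger of their SDs, except RPL4 and RPLP0, whose gap of 0.78 was larger than 0.66. That gap sets unlike libraries side by side, since RPLP0 had peaks in libraries 2 and 4 only, with 1 peak in library 4. Without library 1 the mean of RPL4 was 0.41, and the gap was then smaller than 0.66. The place of RPS3 rested on library 1, without which its mean was 0.28. Without library 2 the RPS3 mean was 1.61. The RPS3 peaks of library 1 above 0 had 3 over 1 or 3 over 2 reads each. Weighted by peak width, the mean was 0.31 for RPS3 and 0.79 for RPL3, so RPS3 was then not first. Without library 1 the mean of RPL3 was 0.17.

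The peaks of the 7 genes formed 75 regions, of which 52 were listed in 1 library, 8 in 2, 7 in 3 and 8 in 4. Among the 15 recurrent regions, those in at least 3 libraries, 3 were above input in each library that listed them, 1 in RPL3 and 2 in RPL4. A single region, in RPL4, was below input in each, and 11 were mixed. The mean log2 over samples ran from -1.47 to 1.92, with a median of 0.14.

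**Figure D5:**
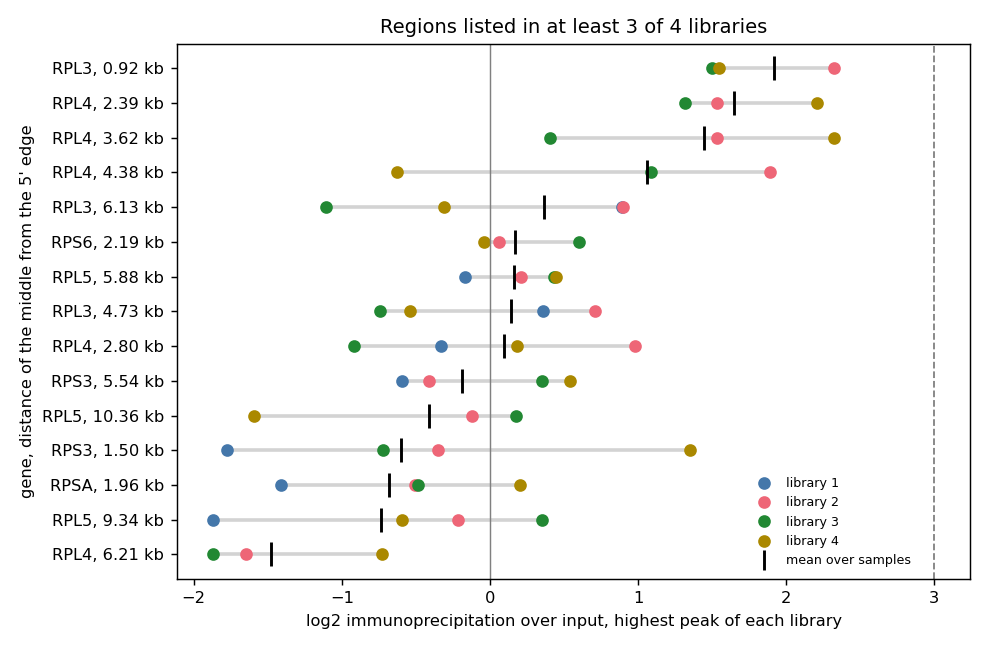
Log2 fold over input of the 15 recurrent regions, those that at least 3 of 4 libraries listed, as the highest peak of each library (coloured points) and the mean over samples (black bar). Rows give the gene and the distance of the region's middle from the 5′ edge of its window; the rows run from 1.92 at the top to -1.47 at the bottom, and no point reaches the dashed line at 8-fold.

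Overlapping peaks of different libraries differed by a median of 0.63 to 1.20 in log2 within the windows. Their signs matched in 16 of 19 pairs of peaks between libraries 1 and 2, 18 of 27 between 2 and 3, 26 of 37 between 2 and 4 and 13 of 21 between 3 and 4. Between library 1 and libraries 3 and 4 they matched in 6 of 11 and 4 of 11. Pearson's r across these pairs was 0.63, 0.64, 0.57 and 0.56, and -0.18 and 0.0047 for the last 2. These are descriptions across peaks that share libraries and transcripts, and 1 peak can enter several pairs.

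By the RefSeq annotation of GRCh38.p14, used for names and neighbours only, 5 of the 7 genes hold 14 small nucleolar RNA genes. From 5′ to 3′ these are SNORD43, SNORD139, SNORD83A and SNORD83B in RPL3, and SNORD18A, SNORD16, SNORD18B and SNORD18C in RPL4. RPL5 holds SNORD21 and SNORA66, RPS3 holds SNORD15A and SNORD15B, and RPSA holds SNORA6 and SNORA62. RPLP0 and RPS6 hold none. Of these 15 recurrent regions, 14 lay in the 5 genes that hold such genes, with 3, 5, 3, 2 and 1 in RPL3, RPL4, RPL5, RPS3 and RPSA, and 1 in the 2 that hold none. The 5 genes also held 55 of all 75 regions (73.3%) and 81.8% of the peaks. All 13 peaks with −log10 p of at least 3 were in RPL3 and RPL4, which hold 4 such genes each. RPL5, RPS3 and RPSA, which hold 2 each, had 0 of these peaks, as did RPLP0 and RPS6. Below 0 were 61 of 117 peaks (52.1%) in these 5 genes and 18 of 26 (69.2%) in RPLP0 and RPS6. Library 2 gave 20 of these 26 peaks and 15 of the 18. Over samples the share below 0 was 50.8% ± 9.46 (SD, n = 3) in the 5 genes. It was 52.5% ± 31.8 (SD, n = 2) in RPLP0 and RPS6. For RPLP0 and RPS6, library 3 held 1 peak, above 0, which weighed as much as all peaks of library 4. With this and n = 2, whether the groups differ cannot be judged. This grouping was made after the values were seen. No annotation of hg19 was used, so that the peaks were not assigned to exons, introns, untranslated regions or small nucleolar RNAs, and which RNA the reads in a window came from was not tested. Ribosomal protein genes also have many processed pseudogenes, and the sources used here do not give how reads that fit several places were handled.

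The single listed peak nearest the 5′ edge of the window was also looked up for every gene. How far it lies from the start of transcription in hg19 was not determined, so it cannot be set against the pyrimidine runs shown above. In RPS6 it lay from 19380219 to 19380237, at 0.40 in library 2 with 19 over 15 reads. In RPLP0 it lay from 120638628 to 120638693, at 0.28 in library 4 with at least 5 over 6 reads, and in RPL3 it was the peak of library 2 with 8 over 8 reads. That RPL3 peak belongs to the region from 39715048 to 39715120, whose other library 2 peaks stood at 2.32 and 2.19. The RPLP0 peak overlaps a library 2 peak at -3.26 with at least 1 over 10 reads. The nearest peaks of these 3 genes were above 0, none with a −log10 p above 0.28. RPL4 had it from 66797133 to 66797163, at -0.29 with at least 11 over 14 reads. RPL5 had it from 93297595 to 93297670, at -0.71 with at least 27 over 46 reads. RPS3 had it from 75110568 to 75110611, at -1.58 with at least 9 over 28 reads, and RPSA from 39449887 to 39449914, at -1.64 with at least 70 over 227 reads. The nearest peaks of these 4 genes were below 0, all in library 2.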

How the data were processed

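The authors deposited 1 peak list per eCLIP library; the submitters' processing notes name build hg19. The lists hold, per peak, the deposited −log10 p (an authors' p-value, 0 to 400) and the authors' log2 fold over input. Aligner, peak caller and the input behind each fold: not given in the sources used here. Per the labels' protocols, reads were paired ends of 75 nt.

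Peaks were assigned to the 7 windows by position and strand with Python 3.11.15 and pandas 2.3.3. The thresholds were the log2 fold of at least 3 and −log10 p of at least 3. Read numbers were worked out with scipy 1.17.1. The log2 fold was read as a ratio of whole numbers (relative tolerance 1e-09) plus a constant per library. The p was matched to Fisher's exact test, or to chi-square with continuity correction from 5 reads on in both, within 0.003. This gave exact reads for 90.7% to 97.2% of the peaks above input. On simulated reads 650 of 651 peaks came back and 0 were wrong, which checks the working back only. The scaling of input over immunoprecipitation depth was 3.18, 1.04, 2.12 and 1.46 in libraries 1 to 4, and total reads are unknown.

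Libraries 3 and 4 had immunoprecipitation reads within sampling noise of each other over 316 peaks shared at 80% overlap with at least 40 reads (chi-square per degree of freedom 0.97, p = 0.636), against 3.62 to 5.89 for other pairs. They were counted as 1 sample, so n is at most 3. Their folds were not that close, and overlapping peaks of libraries 3 and 4 in the windows differed by a median of 0.80 in log2. An SD over samples leaves this distance out. Listed peaks sharing 1 base were merged into regions, and a region's value in a library was that of its highest peak. Intervals are exact binomial at 95% and cover counting error only. No test over the members was run. Lists of other ribosomal protein genes and of stem cell markers needed an annotation of hg19 and were not used here. The members and lists were chosen with earlier results of these data known. Per gene, the text names the regions listed in the most libraries with the highest and the lowest mean. Other regions and peaks were named after their values were seen.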

Additional observations from a re-analysis of the deposited data

Results flagged for a closer look

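Of 32 quantities compared over the 4 libraries, taken singly, 7 had 1 library far from the others. Chance gives about 1 in 20, here 1.6, for continuous values, and the quantities are not independent. Some of those flagged are small counts or shares that are equal in all other libraries. For these the rate does not hold, so 7 cannot be set against 1.6. Library 2 had 9 listed peaks in RPLP0, 15 in RPS3 and 10 in RPSA, each a higher count than in the other libraries. Its list is also the longest, with 118375 peaks against 20254 to 29615 in the others, and the counts were not scaled to this. Over all 7 windows it held 72 of 118375 peaks, against 17 of 25759, 25 of 20254 and 29 of 29615 in libraries 1, 3 and 4. Library 2 also had the highest share of peaks below 0 over the 7 genes, 65.3%, against 44.0% to 47.1% in the others. In library 4, 33.3% of the RPL4 peaks were below 0, against 50.0% in each of the others. Of its RPSA peaks 66.7% were below 0, against all of them in the others. These shares of library 4 rest on 6 and 3 peaks, and the RPL4 share of library 1 rests on 2 peaks. In library 1 the highest log2 fold of RPL5 was -0.17, below the others, on 2 peaks.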

How the results depend on the processing

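No paired analysis was possible because only eCLIP libraries have lists here, and which input entered each fold is not given in the sources used. Enriched peaks in the 7 windows stayed at 0 under the stricter p, the adjusted p, whole inclusion in the window, the opposite strand, the common minimum of 13 reads and each library left out. The stricter p, whole inclusion, the minimum of reads and leaving out a library can only remove peaks, so there the 0 was fixed in advance. Enriched peaks were 8 with a log2 of at least 1 and 13 by p alone, which was added after seeing the data. Both ask for less by construction. The 8 were 5 of 72 in library 2 and 3 of 29 in library 4, and include adjoining peaks. The share of all listed peaks at a log2 of at least 1 was not worked out. By the 8-fold and p-alone shares it lies within 5.38% to 7.47% in library 2 and 12.7% to 14.1% in library 4. Regions enriched in several libraries stayed at 0 under all alternatives run, of which only the looser fold could have given another count. The opposite strand held 1 listed peak, and with each library left out 71 to 126 of the 143 were left, 71 without library 2. The share of enriched peaks in the lists was 3.50%, 0.615%, 1.40% and 0.405% in libraries 1 to 4 among peaks above input with at least 10 input reads and exact read numbers, and the cause was not tested. The mean over samples of the median log2 of all members, 0.06 ± 0.45 (SD, n = 3), was 2.52 for the highest peak and 1.73 for peaks with −log10 p of at least 3. Both choose high peaks by construction. It was -0.14 weighted by width and -0.092 to 0.32 with each library left out. The mean of RPLP0 lay between -0.65 and 0.28 and that of RPS6 between -0.38 and 0.24 over the other alternatives, so neither has a settled sign. The share below 0, 52.3%, was 49.9% with peaks at most 100 bases apart counted once and 45.7% to 54.8% with each library left out, all added after seeing the data. The interval of 38 of the 143 peaks reaches 8-fold; 31 of these have exact reads, and the depth of the other 7 is not known.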

Other observations

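On the strand opposite to the gene, the 7 windows held 1 listed peak, in the window of RPL5 in library 2. It had a log2 fold of 1.65 with 3 over 1 reads and a −log10 p of 0.44. On the strand of the gene the same window held 25 peaks.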
